A study of Mus musculus with 172 samples.

Results

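Levels of 14896 genes in the cerebral cortex were compared among 33 BXD/RwwJ lines of mice. The pools were the 66 cortex libraries of these lines among the 172 libraries of the series, chosen by their line label and not by any measured value. Each line gave 1 control (Ctr) pool and 1 sleep-deprived (SD) pool, each made by the authors from the RNA of adult male mice, several for most lines. SD mice were kept awake by gentle handling for the first 6 h of the light phase, Ctr mice were left undisturbed, and both were killed at that hour. All lines descend from crosses of C57BL/6J (B6) with DBA/2 (D2) mice and carry no transgene. The study names different DBA/2 substrains as parents of the RwwJ and the TyJ lines, so the D2 pools need not match the D2 parent of both sets. Used for comparison were 4 cortex pools of each parental strain (Ctr and SD, from the start and the end of the collection), 4 pools of the reciprocal F1 hybrids and the Ctr and SD pools of 4 BXD/TyJ lines. Ctr and SD pools of a line held different mice, so a level that recurred in both was measured in 2 sets of animals. Whatever else those sets shared, such as breeding or date of sampling, cannot be told apart from the line. BXD96, BXD97 and BXD103 are sister sublines of BXD48, BXD65 and BXD73, and for BXD79, BXD85 and BXD101 fewer mice were used, so that some of their libraries may hold RNA of 1 mouse.

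Recombinant inbred lines such as the BXD set are made by crossing 2 inbred strains and then mating brothers to sisters until each line is homozygous for 1 parental allele at nearly every locus. A line keeps parental chromosomes in long blocks, so neighbouring genes are usually inherited together. A variant that acts on the gene in which it lies splits such lines into those with the B6 allele and those with the D2 allele, and the F1 hybrid carries 1 copy of each.

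The cortex libraries held between 19746305 and 28998853 reads counted on genes in Ctr pools (median 22170272) and between 19025159 and 27294151 in SD pools (median 23049206). Levels are given as log2 CPM (reads scaled to a common library size), on which 1 unit is a doubling of CPM, and a gene without reads has the value -4.51 in Ctr and -4.52 in SD. The Ctr pools of BXD90 and BXD56 stood apart. Over genes averaging 0 log2 CPM or more, the root mean square deviation from the mean of the condition was 0.377 in BXD90 and 0.357 in BXD56 in Ctr, against 0.222 and 0.233 in their SD pools. Neuron markers were summed in each cortex pool. The 10 markers of excitatory cortical neurons summed to between 7197 and 9157 CPM over the 66 pools, and the 9 of inhibitory neurons to between 1046 and 1295 CPM. No other brain region was sampled in the series, so these sums cannot show how cleanly cortex was dissected.

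The first question was how far the lines differed at all. A moderated F test of line in limma, with condition as a term, called 7501 of 14896 genes at a Benjamini-Hochberg adjusted p under 0.05, which is 50.4% of the genes tested (8661 at an unadjusted p under 0.05). Without BXD56 and BXD90 the count was 8868. The repeatability of a gene is the share of its variance that lies between lines after the mean of each condition has been removed. It is 1 when, in every line, the Ctr and SD pools deviate from the means of their conditions by the same amount. It is around 0 when the deviations in Ctr and SD are unrelated. Its median over all genes was 0.325, and the median standard deviation of the 33 line means was 0.111 on the log2 scale. Repeatability reached 0.8 in 997 genes (6.69%) and was under 0.2 in 4642 genes (31.2%). It was higher for abundant genes. The median was 0.213 for the 1155 genes with a mean log2 CPM under 0 and 0.387 for the 3799 genes at 6 or more, although the standard deviation of the line means was smaller in the latter (0.0724 against 0.38).

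**Figure D1:**
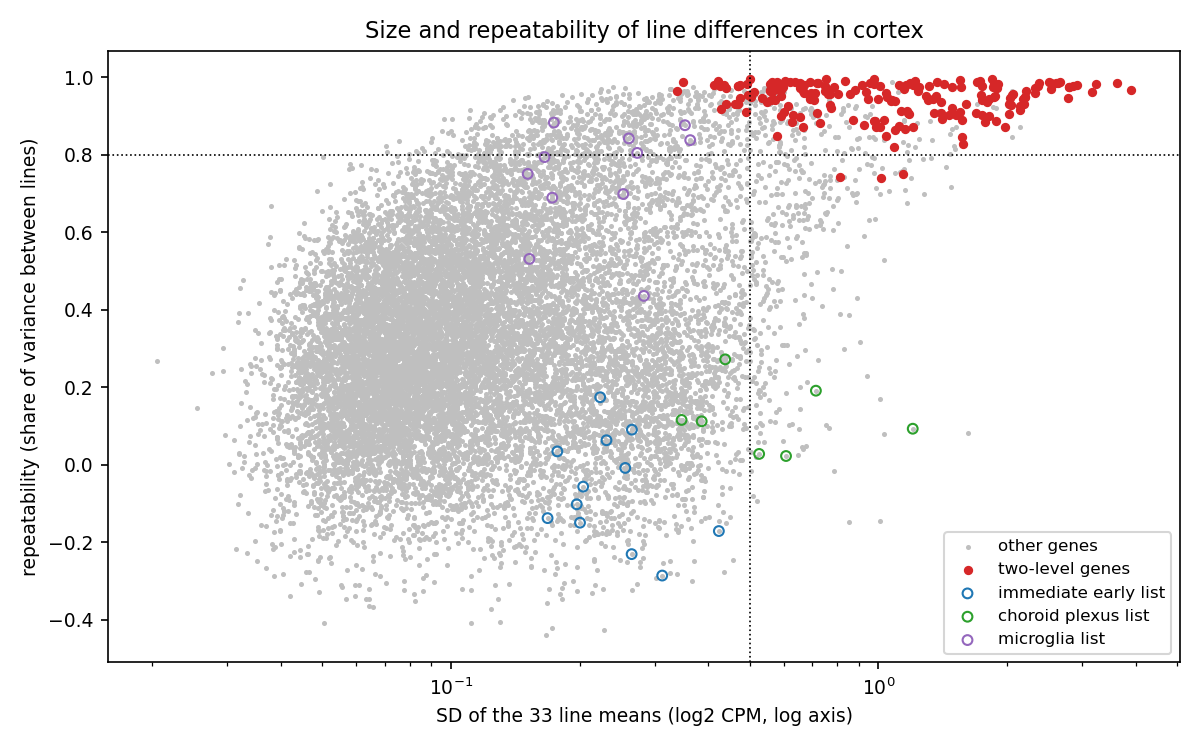
Each point is 1 of the 14896 genes, with the standard deviation of its 33 line means in log2 CPM on the x axis (log axis) and its repeatability on the y axis. Dotted lines mark 0.5 and 0.8, red points are the 196 two-level genes, and open circles are genes of the immediate early, choroid plexus and microglia lists. Choroid plexus genes lie to the right and low, microglia genes to the left and high.

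Line differences that were called, had a repeatability of at least 0.8 and had a standard deviation of line means of at least 0.5 were taken as large and repeatable. There were 323 such genes (2.17% of those listed), and 323 without BXD56 and BXD90. A gene was taken as two-level when the widest space between neighbouring lines, with at least 6 lines on either side, was at least 0.5 log2 units in Ctr and again in SD, and the same lines lay above it both times. This held for 196 genes (1.32%), and 174 of them were also large and repeatable. Without BXD56 and BXD90 214 genes met it, 193 of them among the 196. The median standard deviation of the line means of the two-level genes was 1.07. Because lines were sorted by their own level to find these genes, the sides are described here and not tested. At the edge of the definition, Ang had a gap of 0.5003 in Ctr and 1.13 in SD and 6030458C11Rik one of 0.553 and 0.506. Rsph3b, with 0.520 and 0.499, and Sc5d, with 0.495 and 0.521, split the same lines in both conditions and fell just short.

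The gaps were widest in genes that one side barely expressed. 1500004A13Rik had 0 to 5 reads in each of the 34 pools of 17 lines and 320 to 718 reads in each pool of the other 16 lines. In log2 CPM its high side ran from 3.88 to 4.44 in Ctr and from 4.45 to 4.97 in SD, and no pool lay between the sides. Gm14403, on distal chromosome 2 (mm9 chr2:177282920-177297014), had 0 to 2 reads in 18 lines and 139 to 343 in the other 15. Its neighbour Gm14420 split the same lines, with 1 to 15 reads against 337 to 550. AA388235 had at most 1 read in every pool of 8 lines and 57 to 121 in the other 25. Eqtn, which encodes the sperm acrosome protein equatorin, had at most 1 read in 22 lines and 36 to 77 in 11. AI506816 and Gm11127 were higher on the D2 side. For AI506816 the reads were 0 to 5 in 19 lines and 130 to 238 in 14. Gm11127, within the major histocompatibility complex (mm9 chr17:36192761-36195316), had at most 1 read in 25 lines and 33 to 88 in 8. 9430037G07Rik had at most 1 read in 23 lines and 30 to 59 in 10, and Gm10635 0 to 4 reads in 22 lines and 56 to 176 in 11. In 36 of the 196 genes the low side never passed 5 reads in any pool.

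**Figure D2:**
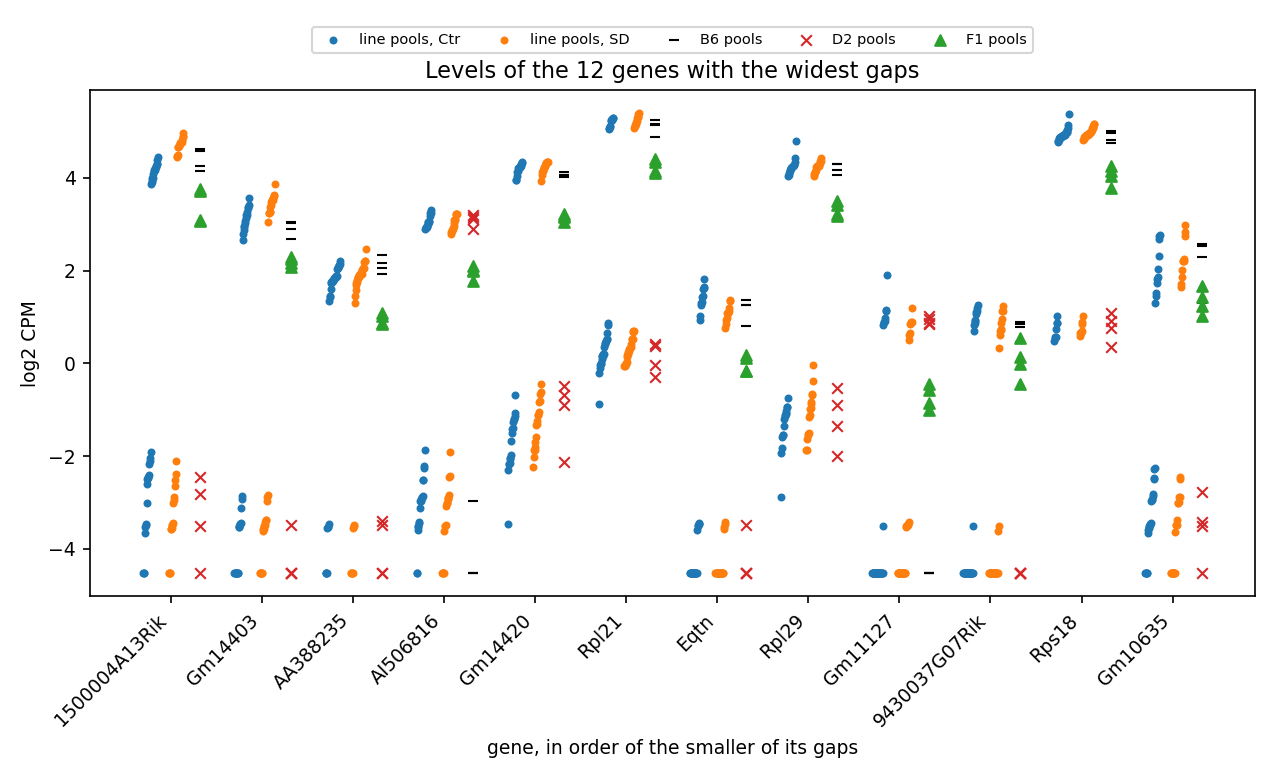
For the 12 genes with the widest gaps, log2 CPM (y axis) is shown for the 33 Ctr pools (blue), the 33 SD pools (orange), the 4 B6 pools (dashes), the 4 D2 pools (crosses) and the 4 F1 pools (triangles). In each gene the line pools form 2 clouds, the parental pools lie 1 strain in each, and all 4 F1 pools lie above the middle of the gap.

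The other 3 of the 12 widest gaps were in genes of the cytosolic ribosome, Rpl21, Rpl29 and Rps18. Rpl21 (mm9 chr5:147644466-147648608) ran from -0.866 to 0.879 log2 CPM in 22 lines and from 5.06 to 5.29 in 11 lines in Ctr, and the ranges in SD were -0.0634 to 0.699 and 5.08 to 5.39. Rps18 (mm9 chr17:34088944-34092946) ran from 0.477 to 1.02 in 8 lines and from 4.78 to 5.38 in 25 in Ctr. Rpl29 lay between -2.89 and -0.739 in 16 lines and between 4.05 and 4.80 in 17. Of 73 cytosolic ribosomal protein genes listed, 6 were two-level, the others being Rpl3, Rpl14 and Rps15a, and 29 were called by the line test (39.7%, against 50.4% of all genes). Their median repeatability was 0.196. Cytosolic ribosomal protein genes have many processed copies in the genome, and htseq-count by default leaves out reads that match several places equally well. When each transcript was cut into 100-base windows, the length of a read, 84.3% of the windows of Rpl3 occurred without mismatch elsewhere in mm9, as did 68.8% of those of Rpl29, 44% of Rpl14, 21% of Rpl21, 15.1% of Rps18 and 2.98% of Rps15a. The levels of these genes are therefore uncertain, and the part of the copies in the split was not tested.

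Among all 196 two-level genes, 167 had an mm9 transcript by symbol, and in 45 of these (26.9%) at least 10% of the windows occurred elsewhere, against 655 of 13739 (4.77%) for all genes with a transcript. Any window elsewhere was found for 73 of the 167 (43.7%), against 14.7% of all genes. By type, 146 of 13338 protein-coding genes (1.09%), 11 of 235 lincRNA genes (4.68%) and 5 of 54 pseudogenes (9.26%) were two-level.

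The parental strains, which the definition did not use, lay on opposite sides of the gap in nearly all of these genes. All 4 B6 pools were above and all 4 D2 pools below its middle in 139 genes, and the reverse held in 53, leaving 4 genes. All 196 were called between D2 and B6 by limma (adjusted p under 0.05 over all genes). D2 was lower in 141 of them and higher in 55, while 13.9% of all genes were called lower and 11.6% higher in D2. The 4 exceptions were Gzmk, G530011O06Rik, Bricd5 and Gm20187. Reads were aligned to mm9, which is the B6 sequence, and the part of mismatches in D2 reads in the excess of genes lower in D2 was not tested.

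All 4 F1 pools lay inside the gap, between the sides, in 125 of the 196 genes. They were all above its middle on the log2 scale in 131 genes and all below it in 4, namely Wwox, 1700019G17Rik, 4930481A15Rik and Bub1b, a kinase of the mitotic spindle checkpoint. An F1 at the mean of its parents in CPM would also lie above the middle on a log2 scale. The F1 pools were above the middle in 94 of the 139 genes higher in B6 and in 36 of the 53 higher in D2. For the 4 BXD/TyJ lines, the Ctr and SD pools of a line lay on the same side in 779 of 784 combinations of gene and line. BXD29 and BXD29t among them share a line number in their labels, so they may be related.

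Two-level genes with high expression are described next, chosen after their values were seen from the 47 that averaged 4 log2 CPM or more. Scoc, which encodes a short coiled-coil protein of the Golgi, had the highest repeatability of all genes (0.997). It lay between 4.21 and 4.39 log2 CPM in 17 lines and between 6.10 and 6.31 in 16 lines in Ctr, and between 4.18 and 4.50 and 6.15 and 6.34 in SD. D2 minus B6 was -1.82 ± 0.0568 (SE, limma adjusted p = 7.6e-12), and the F1 pools were all inside the gap. Of its windows 50% occurred elsewhere. Neat1, the RNA scaffold of nuclear paraspeckles, ran from 4.08 to 4.92 in 17 lines and from 6.60 to 7.42 in 16 in Ctr. It was lower in D2 by limma (log2 difference -2.29 ± 0.0508 SE, adjusted p = 6.3e-13), and no window of it occurred elsewhere. In liver the lines of both sides overlapped for Neat1.

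Scg5, which encodes the neuroendocrine chaperone 7B2, ran from 7.50 to 7.97 in 20 lines and from 8.75 to 9.15 in 13 in Ctr, and was higher in D2 by 1.29 ± 0.0405 (SE, limma adjusted p = 7.6e-12). Tpm3, a tropomyosin, ran from 4.95 to 5.22 and from 6.46 to 6.66 in Ctr, with 17 and 16 lines. Wwox, an oxidoreductase at a common fragile site, is 1 of the genes whose F1 pools were all below the middle, with lines from 3.87 to 4.43 and from 5.25 to 6.32. Kifap3, a subunit of the kinesin-2 motor, was split by the smallest steps among these (7.79 to 7.92 in 18 lines, 8.46 to 8.62 in 15 in Ctr).

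Hspa8, the constitutive 70-kDa heat shock protein, was split within both conditions while SD shifted both sides. In Ctr 19 lines lay between 6.65 and 7.21 and 14 lines between 8.18 and 8.37. In SD the same 19 lay between 7.27 and 7.71 and the same 14 between 8.72 and 8.98. The low side in SD thus stayed below the high side in Ctr. B6 pools were on the high side and D2 pools on the low side, with D2 minus B6 of -1.35 ± 0.0471 (SE, limma adjusted p = 2.6e-11). Of its windows 32.7% occurred elsewhere in mm9, and their part in the split was not tested. Of the 11 heat shock genes listed it was the only two-level gene, 3 of 11 were called (27.3%, against 50.4%), and the median repeatability of the list was 0.164.

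**Figure D3:**
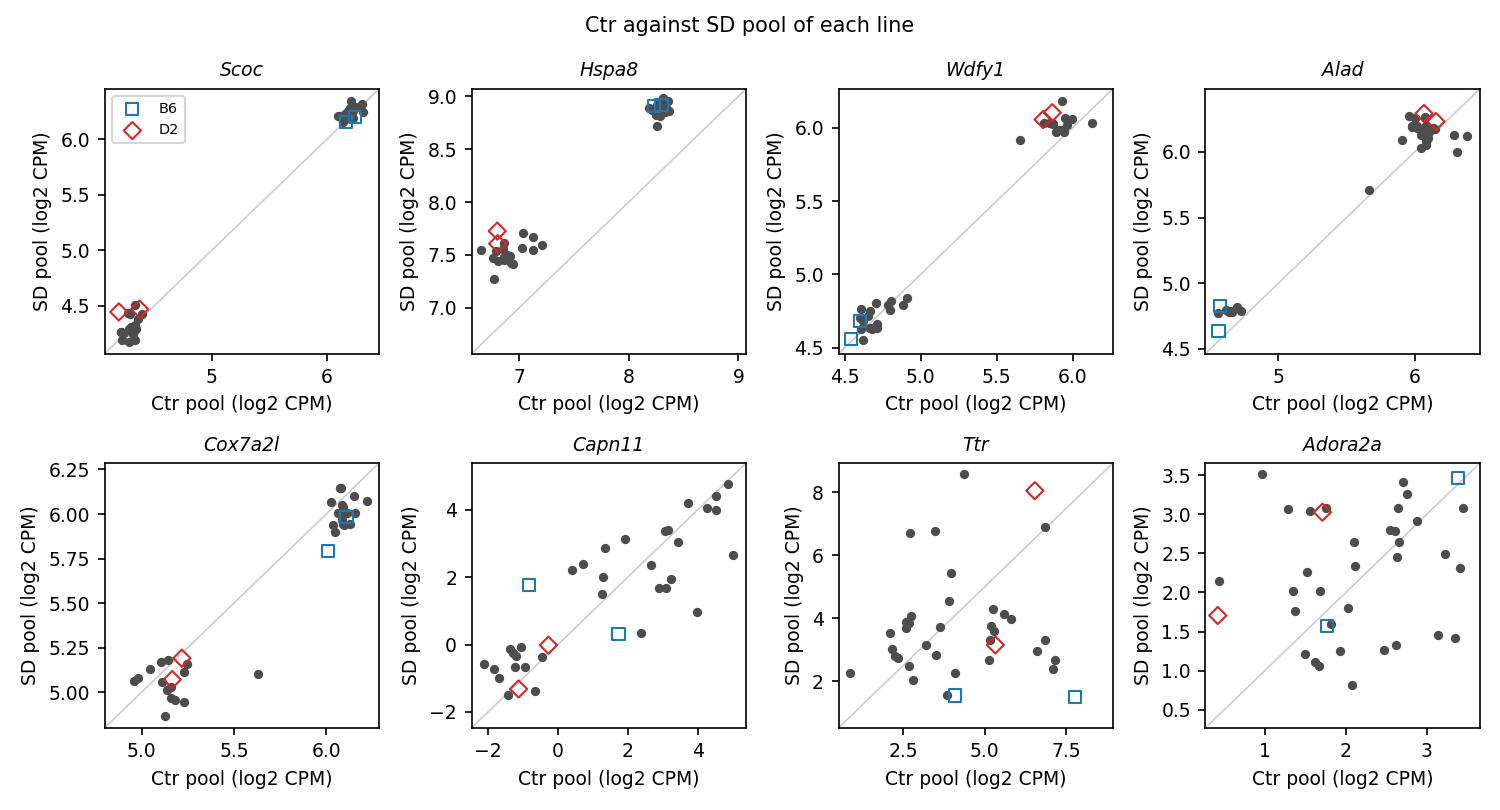
For 8 genes, the SD pool of each of the 33 lines (y axis, log2 CPM) is plotted against its Ctr pool (x axis, log2 CPM). Squares are B6 and diamonds D2, paired by start or end of collection. Scoc, Hspa8, Wdfy1 and Alad form 2 clouds, Cox7a2l 2 clouds with 1 line between them in Ctr, Capn11 is spread along the diagonal, and Ttr and Adora2a show no line order shared by Ctr and SD.

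Genes with well-known variants between B6 and D2 were listed from general knowledge, and 11 of them were measured. The line test called 10 of 11 (90.9%, against 50.4% of all genes), with a median repeatability of 0.81. Wdfy1, a phosphoinositide-binding adaptor of Toll-like receptor signalling, ran from 4.60 to 4.91 in 18 lines and from 5.65 to 6.13 in 15 in Ctr. It was higher in D2 by 1.36 ± 0.0537 (SE, limma adjusted p = 1.0e-10), and the lines kept their sides in liver. Alad, the aminolevulinate dehydratase of haem synthesis, ran from 4.56 to 4.72 in 7 lines and from 5.66 to 6.39 in 26, and was 1.54 ± 0.0505 higher in D2 (SE, limma adjusted p = 1.4e-11). Glo1, which detoxifies methylglyoxal, was high in 6 lines (6.42 to 6.76 in Ctr) and low in 27 (5.28 to 5.61), and higher in D2 by 1.11 ± 0.0435 (SE, limma adjusted p = 1.0e-10). Of the windows of Glo1 44% occurred elsewhere in mm9. Gpnmb, a glycoprotein of melanosomes and phagocytes, had 1 to 13 reads in 15 lines and 33 to 119 in 18, and was lower in D2 (log2 difference -3.32 ± 0.221, SE, limma).

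Cox7a2l, an assembly factor of respiratory supercomplexes, had a repeatability of 0.964 and ran from 4.96 to 6.22 (median 6.04) in Ctr and from 4.86 to 6.15 (median 5.94) in SD. Its gap was 0.394 in Ctr and 0.716 in SD, so that it was not two-level by the definition, and it was lower in D2 by limma (-0.814 ± 0.0543, SE). Gabra2, a GABA-A receptor subunit, ran from 5.02 to 6.29 in Ctr and from 5.32 to 6.25 in SD with a repeatability of 0.81, and was higher in D2 (0.915 ± 0.0614, SE). The lines differed less in Ahr (repeatability 0.530), Nnt (0.504) and Kcnj9 (0.483). Ide, which degrades insulin, was the only listed gene that the line test did not call (adjusted p = 0.139, limma), with values from 5.76 to 6.16 in Ctr.

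Neighbouring two-level genes split the lines alike. For 166 genes with a location and with parents on opposite sides, each line was placed on the B6 or the D2 side. Of 116 pairs of genes under 2 Mb apart, 96 (82.8%) placed all 33 lines on the same side. The share was 11.7% of 163 pairs at 2 to 10 Mb, none of 340 pairs at 10 to 30 Mb or of 360 at over 30 Mb, and 0.0708% of 12716 pairs on different chromosomes. The median number of lines on the same side fell over these classes from 33 to 29, 23 and 17, and was 17 on different chromosomes. In all, 79 of the 166 genes fell into 28 runs of neighbours with 1 split. In 16 of the 28 runs some genes were higher in B6 and others higher in D2. Every pair within a run was counted, so the pairs are not independent and a run with many genes weighs more in the shares above.

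The run with the most genes lay in the major histocompatibility complex (mm9 chr17:34088944-36248633), with 25 lines on the B6 side. It held 10 genes, namely Rps18, H2-K1, H2-DMb1, H2-Ea-ps, Msh5, Gm8801, A930015D03Rik, Gm11127, H2-Bl and C920025E04Rik, 5 of them higher in B6 and 5 higher in D2. H2-K1, the heavy chain of a classical class I molecule, ran from 1.66 to 2.92 in 8 lines and from 3.85 to 5.30 in 25 in Ctr, and was lower in D2 by limma (-2.58 ± 0.128, SE). H2-Ea-ps, the alpha chain gene of the class II molecule I-E, had no read in any pool of the 25 lines and 8 to 39 reads in each pool of the 8 lines. Over the 27 antigen presentation genes listed, 22 were called (81.5%, against 50.4%) and 4 were two-level, with a median repeatability of 0.646. The 4 two-level genes, H2-Bl, H2-DMb1, H2-Ea-ps and H2-K1, all belong to this run. Most of the 27 are H2 genes, and neighbours are usually inherited together, so these counts rest on fewer independent positions than genes. B2m, the light chain of class I molecules, lies outside the complex and had a repeatability of 0.943 with a standard deviation of line means of 0.379.

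On chromosome 1, Tnni1, Tnnt2 and Cacna1s (mm9 chr1:137679642-138016399) encode slow troponin I, cardiac troponin T and the channel subunit of skeletal muscle. The same 23 lines lay on the B6 side for all 3. Tnnt2 had 0 to 7 reads in 10 lines and 79 to 177 in 23, and was lower in D2. Cacna1s went the other way, with 7 to 21 reads in 23 lines and 61 to 183 in 10.

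A few splits were shared by genes annotated on different chromosomes. Fggy (mm9 chr4:95224198-95593630), 1700019G17Rik on chromosome 6 and 2410018L13Rik and 1700030C10Rik on chromosome 12 split all 33 lines alike, with 14 on the D2 side. Fggy, a carbohydrate kinase, had 0 to 18 reads in those 14 lines and 178 to 354 in the other 19. The split of the chromosome 12 genes was close to that of their neighbour Gm9866, with 28 lines on the same side. 1700019G17Rik matched in only 16 lines with Anxa4, 0.832 Mb away. 4930481A15Rik, annotated on chromosome 19, split the lines as Gm13157, Gm13178, Zfp933 and Miip on chromosome 4 did, and matched in 10 lines with its neighbours Neat1 and Fau. Pairs on different chromosomes with all lines alike numbered 9, all among the genes named here, and were picked after the values were seen.

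Sister sublines were alike across these genes. BXD48 and BXD96 lay on the same side for 155 of 166 genes (93.4%), and BXD65 with BXD97 and BXD73 with BXD103 for 153 each (92.2%). For the other 525 pairs of lines the share ran from 32.5% to 84.9% (median 53.6%), the highest being BXD43 with BXD100. The share of genes on the B6 side ran from 36.7% in BXD87 to 68.1% in BXD49, BXD96 and BXD100. Genes in 1 run share their split, so these shares rest on fewer independent positions than genes.

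**Figure D4:**
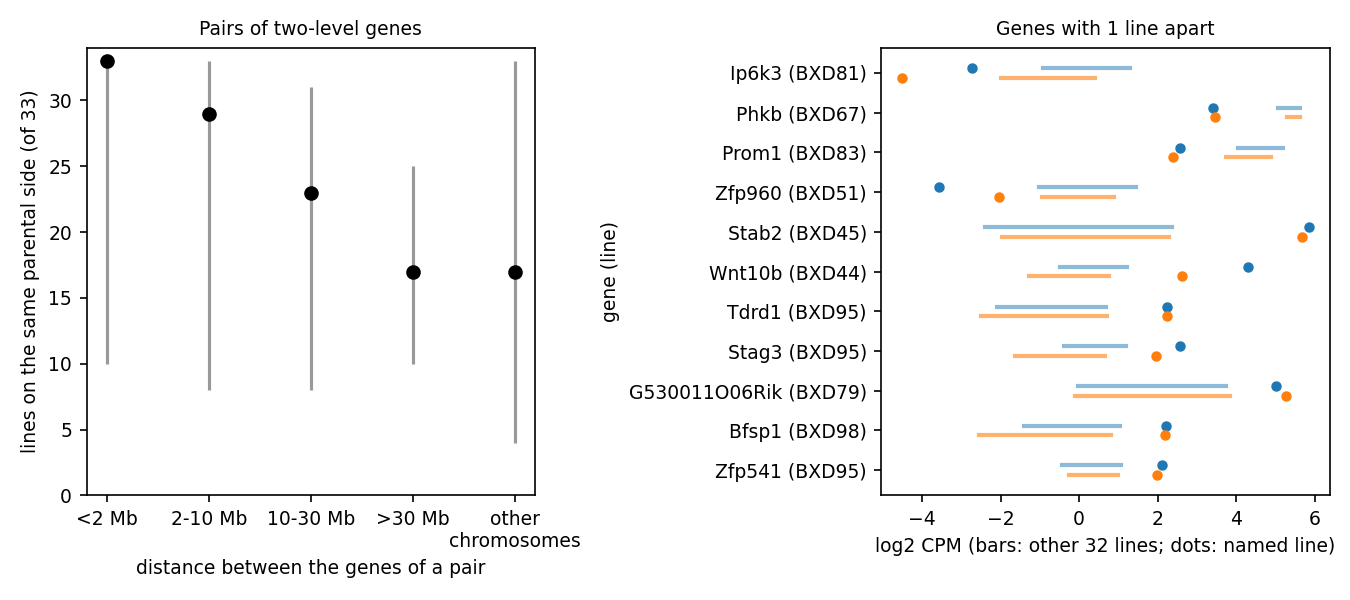
Left, for pairs of two-level genes by distance (x axis), the median (dot) and range (line) of the number of lines on the same parental side (y axis, of 33). Right, for 11 genes with 1 line apart, log2 CPM (x axis) of that line (dots) and the range of the other 32 lines (bars) in Ctr (blue) and SD (orange). The median falls from 33 for pairs under 2 Mb apart to 17, and no dot on the right lies on its bar.

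Large repeatable differences without 2 levels were found in 149 genes, and those with the widest spread included Rec8, Mia2, Capn11, Serpina1b, H2-K2, Ccnb1ip1 and Col6a4. Capn11, a calpain of testis, did not split the same lines in both conditions and ran from -2.12 to 5.03 (median 1.35) in Ctr and from -1.48 to 4.77 (median 1.69) in SD. Its parents were closer together than its lines, at -1.43 ± 0.481 (D2 minus B6, SE, limma). Rec8, a cohesin of meiosis, ran from -4.51 to 3.25 in Ctr and from -4.52 to 3.10 in SD, and BXD49 was the highest line in both. Col6a4, a collagen VI chain, ran from -1.64 to 3.15 in Ctr and from -2.36 to 2.75 in SD. Mia2, Serpina1b and Ccnb1ip1 had no read in any B6 pool, and 15 to 27, 14 to 59 and 8 to 18 reads in the D2 pools. H2-K2 went the other way, with 19 to 39 reads in B6 and 0 to 2 in D2. Col6a4 was lower in D2 by limma (-3.38 ± 0.194, SE).

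Stab2, which encodes a scavenger receptor for hyaluronan, was two-level. D2 pools lay between 6.03 and 6.83 log2 CPM and B6 pools between -1.27 and -0.321. The 26 lines on the low side ran from -2.41 to -0.191 in Ctr, and the other 7 from 1.29 to 5.87. BXD45 was the highest line, at 5.87 in Ctr (1162 reads) and 5.68 in SD (1102 reads), and the next line was at 2.38 and 2.30.

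Single lines that stood apart were then looked for, after that value had been seen. In 12 genes (0.0806% of those listed) the same line lay at least 1 log2 unit beyond all 32 others in Ctr and in SD. Phkb, a subunit of phosphorylase kinase, which activates glycogen breakdown, was low in BXD67, at 3.41 in Ctr and 3.45 in SD, while the other lines lay between 5.07 and 5.63 in Ctr and between 5.30 and 5.62 in SD. B6 and D2 pools lay between 5.32 and 5.57. The study took liver from the same set of mice as cortex, so liver adds a tissue and not further animals. In liver BXD67 was also the lowest line in both conditions, at 3.98 and 3.92, the others being at 6.39 or above. Prom1, a pentaspan membrane protein, was low in BXD83 (2.57 and 2.40, others from 3.75), and BXD83 was the lowest line in both liver conditions. Zfp960 was low in BXD51 with 1 and 5 reads, and again lowest in liver, although 61.9% of its windows occurred elsewhere. G530011O06Rik, on the X chromosome, was high in BXD79 (5.03 and 5.27, others up to 3.86), above both parents and again the highest in liver. Stab2 was the fifth of these genes listed in liver, and BXD45 ranked 2 in Ctr and 8 in SD there. Wnt10b was high in BXD44 (4.30 and 2.63), Bfsp1, a filament protein of the lens, in BXD98 (2.21 and 2.18), and Ip6k3 had 3 and 0 reads in BXD81. Tdrd1, Stag3 and Zfp541 were all highest in BXD95. Growth hormone (Gh) was highest in BXD100, at 5.87 in Ctr and 2.43 in SD, with 1248 and 129 reads.

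Some genes varied widely between pools without recurring in a line. The 8 with the widest spread at a repeatability under 0.2 and an average of 0 log2 CPM or more were Ttr, Clic6, Sh3rf2, Drd2, Adora2a, Syndig1l, Cdh23 and Ecel1. Ttr, the thyroid hormone carrier transthyretin of the choroid plexus, ran from 0.864 to 7.14 (median 3.85) in Ctr, with BXD90 highest, and from 1.57 to 8.57 (median 3.53) in SD, with BXD79 highest. Its repeatability was 0.0929. Adora2a and Drd2, receptors of striatal neurons, ran from 0.432 to 3.45 and from -1.52 to 2.54 in Ctr, with repeatabilities of 0.110 and 0.0929. Cdh23 and Ecel1 were highest in the Ctr pool of BXD56, 1 of the pools that stood apart. The 4 B6 pools themselves spread from 1.49 to 7.77 for Ttr.

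Ttr and Clic6 belong to the choroid plexus list and Drd2, Adora2a and Syndig1l to the striatum list, so their levels are part of the sums of these lists. The 7 choroid plexus markers summed to between 10.2 and 159 CPM in Ctr (BXD90 highest) and between 10.6 and 425 in SD (BXD79 highest), and 1 of 7 was called (14.3%, against 50.4%). The 10 striatum markers summed to between 245 and 551 CPM in Ctr and between 330 and 623 in SD, the highest lines being BXD56 and BXD55, and 2 of 10 were called (20%). Without the genes named above, the other 5 choroid plexus markers summed to between 5.19 and 27.1 CPM in Ctr (BXD56 highest) and between 6.49 and 37.4 in SD (BXD79 highest). The other 7 striatum markers summed to between 241 and 529.9 CPM in Ctr and between 322.9 and 592.8 in SD, with BXD56 and BXD55 again highest. The median repeatability was 0.112 and 0.116 for these lists. None of the 3 hypothalamus and pituitary markers listed was called, and their sum in Ctr ran from 1.56 to 60.6 CPM, with BXD100 highest in Ctr and in SD. Gh, picked above because BXD100 stood apart in it (5.87 log2 CPM in Ctr, 2.43 in SD), is 1 of these 3. Its level is part of the sum, and no sum without Gh is given. The part of the dissection in these values was not tested. In pooled tissue fewer cells of a type and less RNA per cell cannot be told apart.

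Markers of most cortical cell types recurred within lines, read against 50.4% of all genes called and a median repeatability of 0.325. Abundant genes were called more often. Of the genes with a mean log2 CPM of 6 or more, 60.4% were called, with a median of 0.387. The median log2 CPM was above 6 for the oligodendrocyte (6.59), astrocyte (7.29), excitatory (6.98) and inhibitory neuron lists (6.29), and the excitatory list lay near these values in repeatability. All 11 microglia markers were called, as were all 10 astrocyte and all 10 endothelial and mural markers, and 10 of 12 of oligodendrocytes and myelin. Microglia had the highest median repeatability of these (0.794, against 0.325 for all genes), with a median standard deviation of line means of 0.253. Csf1r, the receptor on which microglia depend, ran from 6.28 to 7.10 (median 6.65) in Ctr and from 6.28 to 7.07 (median 6.71) in SD. The complement genes C1qa, C1qb and C1qc had repeatabilities of 0.805, 0.877 and 0.838, and Aif1 the lowest (0.436). The sum of the 11 markers ran from 349 to 535 CPM in Ctr and from 352 to 514 in SD, and BXD98 was lowest and BXD89 highest both times. Oligodendrocyte and myelin markers had a median of 0.607, from 0.099 for Opalin to 0.791 for Mal, and BXD87 had the highest sum in Ctr and in SD. Astrocyte markers had a median of 0.514, inhibitory neuron markers 0.532 (8 of 9 called), endothelial and mural markers 0.505, and excitatory neuron markers 0.389 (7 of 10 called). The sum of the excitatory neuron markers had a repeatability of 0.0763, against 0.832 for that of microglia and 0.671 for that of oligodendrocytes. Camk2a, the most abundant of these excitatory markers (mean log2 CPM 12.1), weighs most in that sum and had a repeatability of 0.0735. The sum therefore says little about the other markers of that list, of which Cux2 was the least repeatable (-0.0169). The lowest Ctr value of the summed excitatory markers was in BXD56, whose Ctr pool stood apart. Of the 6 hippocampus markers 4 were called and of the 7 thalamus markers 3, near the share of all genes. The red blood cell list came down to Alas2, which was called (repeatability 0.428).

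**Figure D5:**
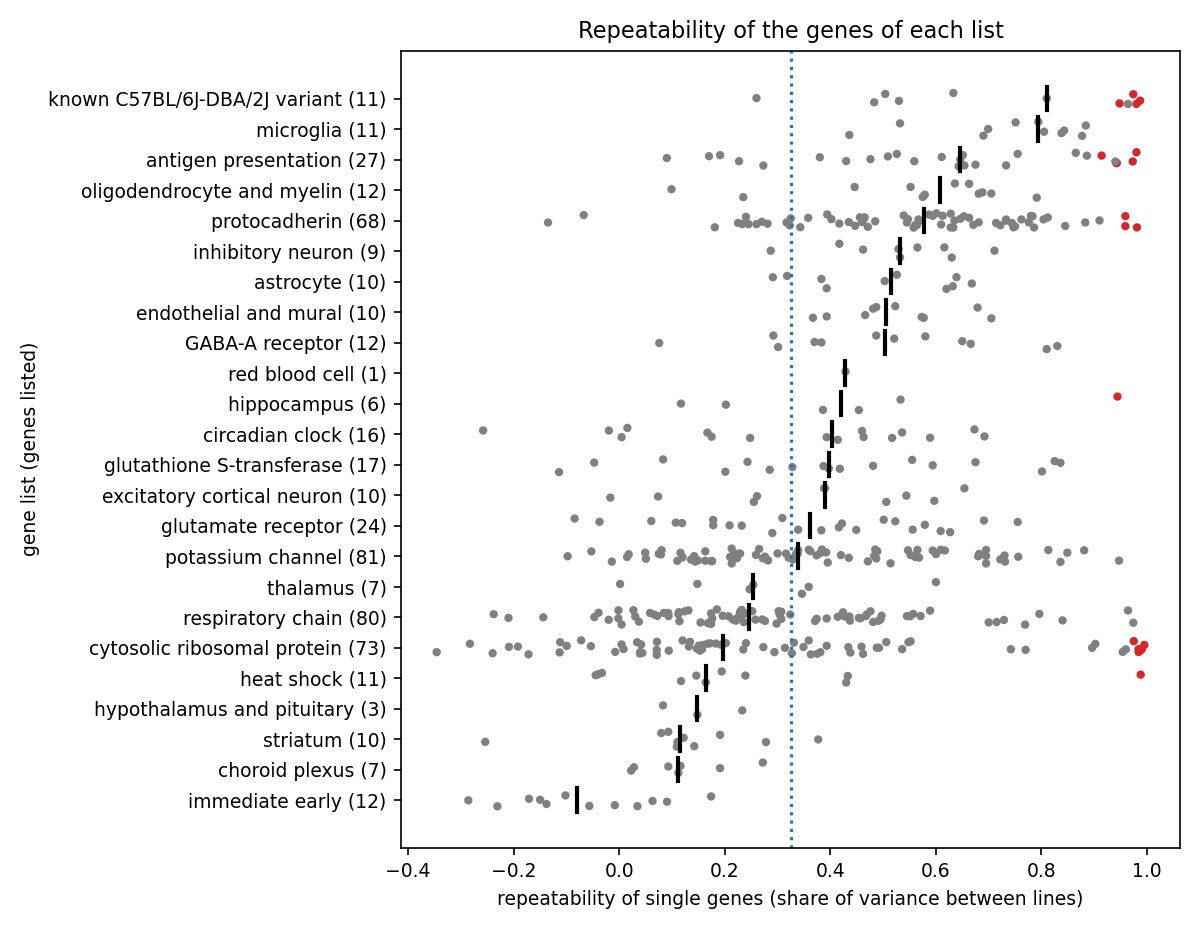
Repeatability (x axis) of each gene of 24 lists (the Zfp list is not drawn) (y axis, with the number of genes listed), in the order of the list medians (black bars). Red points are two-level genes and the dotted line is the median of all genes (0.325). The medians run from -0.0795 for immediate early genes to 0.81 for genes with known variants.

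At the other end, none of the 12 immediate early genes, which neurons induce within minutes of activity, was called by the line test (50.4% of all genes were), and their median repeatability was -0.0795. Fos ran from 2.41 to 5.32 (median 3.61) in Ctr and from 5.08 to 6.63 (median 5.87) in SD with a repeatability of -0.286, and Ier2 had the highest value of the list (0.174). A negative value means that in these pools the deviations of a line in Ctr and SD tended to oppose each other. Of all genes 1344 (9.02%) had a repeatability under 0, and whether negative values differ from 0 was not tested. Clock genes were mixed. Of 16 listed, 10 were called (62.5%), from -0.258 for Per1 to 0.692 for Per3, a period gene that ran from 6.07 to 6.82 in Ctr and from 6.04 to 6.86 in SD.

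Among genes of neuronal signalling, 10 of 12 GABA-A receptor subunits were called (83.3%, against 50.4% of all genes), with a median repeatability of 0.504 and the highest value in Gabrb2 (0.830), which ran from 8.05 to 9.11 in Ctr. Glutamate receptor and potassium channel genes lay nearer to all genes, whose median was 0.325. Of 24 glutamate receptor genes 15 were called (62.5%, median 0.361), Grin2d being the most repeatable (0.755) and Gria3 the least (-0.0846). Of 81 potassium channel genes 49 were called (60.5%, median 0.338). Kcnj11, the pore of the ATP-sensitive channel, had the highest value of that list (0.947), with levels from 5.29 to 6.33 in Ctr and from 4.94 to 6.02 in SD. Protocadherins, adhesion molecules of which clustered genes are chosen neuron by neuron, were called in 58 of 68 genes (85.3%) with a median of 0.578. Most of those listed are clustered genes, and neighbours are usually inherited together, so this share rests on fewer independent positions than genes. The gamma cluster genes Pcdhga11, Pcdhgb6 and Pcdhgb8 were two-level. Pcdhga11 ran from 1.43 to 2.65 in 22 lines and from 4.06 to 4.76 in 11 in Ctr and was lower in D2 (-2.34 ± 0.0892, SE, limma), whereas Pcdhgb8 was higher in D2 (2.11 ± 0.136, SE).

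The next 3 lists lay near the background of 50.4% called, 1.32% two-level and a median of 0.325. Of 80 respiratory chain genes 34 were called (42.5%, median 0.246). Ndufa12, a subunit of complex I, was the most repeatable (0.974), with levels from 1.55 to 4.77 (median 4.18) in Ctr, and Uqcrfs1 the least (-0.238). Of 17 glutathione S-transferase genes 10 were called (58.8%, median 0.397), Gsto1 having the highest value (0.836). Of 343 Zfp zinc finger genes 148 were called (43.1%, median 0.274) and 5 were two-level. The Ctr pool of BXD90, which stood apart, had the highest summed CPM of the respiratory chain genes in Ctr (9611, median 7660). It had the lowest Ctr sum of the Zfp, glutamate receptor, GABA-A receptor, potassium channel and protocadherin genes. Its part in the shares called of these lists was not tested.

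In liver the same test called 8329 of 14107 genes (59% of those tested) over the same lines. Liver came from the same set of mice as cortex, so a split kept there was not measured in new animals. Of the 196 two-level genes of cortex 147 were also listed in liver, and 132 of them were called there. The lines kept the same sides without overlap in both liver conditions in 51 genes, among them Gm14403, Rpl21, Rps18, Scoc, Tpm3, Wdfy1 and H2-K1. The sides overlapped in 92 genes, and in 4 they were exchanged. Liver libraries were shallower, with 4681101 to 8269401 reads.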

How the data were processed

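Poly(A) RNA of pooled cortex and liver was sequenced by the authors in stranded single-end libraries, mapped with STAR to the mm9 genome, and assigned to RefSeq gene models by htseq-count with the reverse strand setting. The deposited values are log2 CPM, scaled by the authors with edgeR's TMM method with a prior count close to 1. When the scaling was undone, 100% of the values under 200 reads came out whole to within 0.02. These recovered reads gave depths and read numbers. Every column was used only through its sample label.

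Lines were tested with limma 3.58.1 in R 4.3.3 (moderated F over the line coefficients, condition as a term, variance trend, 66 pools), and D2 with B6 over their 8 cortex pools with condition as a term. P-values were Benjamini-Hochberg adjusted over all genes listed in the tissue. Each line has 1 pool per condition, so the error is the spread between the Ctr and SD pools of lines after the mean effect of SD. Any difference between lines in their response to SD is part of it. The B6 and D2 pools of a condition are only 2 a strain, and their p-values measure the spread between these pools.

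Repeatability is the intraclass share, the mean square between lines minus the residual mean square, divided by their sum. Genes were placed by symbol in the GENCODE annotation of mm9 (13772 of 14896 at 1 location), and 100-base windows of the longest transcript, every 10 bases, were matched without mismatch to the rest of the genome. Genes named are the 12 two-level genes with the widest gaps, the 8 other large repeatable genes with the widest spread, the 8 widest with a repeatability under 0.2, the known variants, the genes at the edge of the gap definition, and the extremes of each list. A few genes that these rules select are not reported here. Others were chosen after their values were seen. The comparisons, members and gene lists were chosen with earlier results of these data known.

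Pairing of the parental pools by start or end of collection was checked on the deviations of B6 with D2, which correlated over genes at 0.0728 in Ctr and 0.103 in SD, and no block was used. Alternatives were other scalings, filters, thresholds, voom weights and left-out lines.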

Additional observations from a re-analysis of the deposited data

Results flagged for a closer look

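Differences between cortex and liver were picked out where every pool of D2 lay on one side of every pool of B6 in cortex and on the other side in liver, or where the 33 lines exchanged sides. These differences between tissues were not tested. Mia2 was higher in D2 in cortex (no read in B6), and D2 minus B6 in liver was -0.255 log2 CPM. The reverse held for 5 genes that were lower in D2 in cortex and higher in liver, by 0.842 for H2-K2, 0.434 for Alas2, 1.16 for Zfp157, 1.6 for Darc and 0.25 for Rbbp9. All genes given here for the parental strains were among those selected for description, and no share over all genes is given.

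Among the two-level genes, the lines changed sides for 4. In C920025E04Rik the smaller gap in cortex was 1.16, and in liver the 8 lines low in cortex lay between 2.83 and 3.43 and the other 25 between -0.74 and 1.47. In Fut10, a fucosyltransferase, the gap was 0.934, and the 14 lines low in cortex lay between 3.34 and 4.48 in liver while the other 19 lay between 0.56 and 2.46. In Slc39a2, a zinc transporter, the gap was 0.658, and the 24 lines low in cortex lay between 2.37 and 5.28 in liver, the other 9 between -1.23 and 1.32. In Zfp157 the gap was 0.66, and the ranges in liver were wide, 4.91 to 6.45 for the 13 lines low in cortex and 3.62 to 4.98 for the other 20, over both conditions.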

How the results depend on the processing

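The count of genes called by the line test fell from 7501 to 3080 without condition as a term. It ran from 7158 (without BXD66) to 8741 (without BXD90) with 1 line left out. Large repeatable genes numbered 524 at a standard deviation of at least 0.3, 133 at 1 and 207 at a repeatability of at least 0.9, against 323, and ran from 319 to 328 with 1 line left out. Two-level genes fell from 196 to 95 at a gap of at least 1 and ran from 192 to 206 with 1 line left out. With quantile normalization 201 genes were two-level, 189 of them among the 196. The count of genes between D2 and B6, 3804, was 3012 without replicate 1, 2816 without replicate 2 and 4447 with the replicate block. The replicate numbers mark the start or the end of the collection and share only that time. All 196 two-level genes were called under these settings except without replicate 2 (194), and with genes of a mean log2 CPM of at least 0 (134 of the 134 kept). Leaving out BXD56 and BXD90 was chosen after seeing the data. With 1 pool per line and condition, a line difference in the response to SD cannot be told apart from error.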

Other observations

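BXD95 was the highest line for 3 of the 12 genes with 1 line apart, Tdrd1, Stag3 and Zfp541, which act in germ cells. A list of 14 germline genes measured in cortex was then written after these had been seen, so its count is a description. BXD95 was the highest of the 33 lines in Ctr and in SD for 6 of the 14, and 3 of the 6 are the genes that led to the list. Over all 14896 genes this held for 33 (0.222%). Henmt1, which methylates small RNAs of the germline, was at 2.70 in Ctr and 2.26 in SD, the others reaching 1.72 and 1.22. Sycp3, of the synaptonemal complex, was at 1.92 and 1.51 (others up to 1.32 and 0.779). Mael, which silences transposons, was at 1.97 and 2.56 (others up to 1.48 and 2.10). Dazl was not set apart, BXD95 ranking 16 in both conditions, and neither were Brdt (5 and 13) and Tex14 (26 and 8). For Piwil2 the ranks were 26 and 1.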
